A study of Caenorhabditis elegans with 2 samples.

Results

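The *nas* genes of *Caenorhabditis elegans* encode the nematode astacins, a large family of zinc metalloproteases. Their occupancy by the GATA-type transcription factor ELT-3 was described from chromatin immunoprecipitation followed by sequencing (ChIP-seq). The members are all protein-coding genes of the WBcel235 annotation named *nas-* and a number, which gives 37 gene records with 36 different names because *nas-2* has 2 records. *dpy-31*, which is also called *nas-35*, was added under the name that the annotation uses. The 38 members are among 19973 protein-coding genes on the nuclear chromosomes. They were divided into 6 members set apart as epidermal genes of molting and the cuticle (*nas-6*, *nas-7*, *dpy-31*, *nas-36*, *nas-37* and *nas-38*) and 32 other members. *hch-1* and *toh-1* are astacin genes with names of their own and were not counted as members.

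The samples are 2 biological replicates of 1 group of whole L3 larvae, males and females pooled, of the strain OP75, whose genotype is given as unc-119(ed3) III; wgIs75. Both replicates carry the unc-119 allele and a stably expressed transgene in which ELT-3 ends in a C-terminal GFP-FLAG tag. There is no second condition, stage or genotype, so every comparison below is between genes or between regions of the same lists. Whole animals were used, so occupancy in the epidermis and in other tissues that make ELT-3 cannot be told apart.

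Astacins are made as inactive precursors that become active when a propeptide is removed, and many are secreted and cut proteins of the extracellular matrix. In the worm, the cuticle is built anew by the epidermis before each molt and the old one is shed, and several astacins act in these steps. DPY-31 processes the C-terminal end of the cuticle collagen SQT-3, and NAS-36 and NAS-37 are needed to shed the old cuticle. NAS-38 has been linked to molting and to the sleep-like state that accompanies it, and NAS-6 to the cuticular grinder of the pharynx. ELT-3 is best known from the epidermis, and like other GATA factors it recognises WGATAR, where W stands for A or T and R for A or G.

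The 5 sequences below are shown because they lie at the strongest regions near members on which the results turn. Each is 201 bases of the WBcel235 assembly, which has the coordinates of ce11, centred on a summit of the pooled list and written 5′ to 3′ on the strand of the member. Capitals mark WGATAR on either strand, so that a match to the opposite strand reads YTATCW, with Y for C or T. The *nas-7* region is chrII:7405368-7405568 on the minus strand, and the *nas-27* region is chrII:1182133-1182333 on the minus strand; both lie farther upstream than the window used for counting. The *nas-11* region is chrX:6712585-6712785 on the plus strand, the *dpy-31* region is chrIII:7201221-7201421 on the plus strand, and the *nas-37* region is chrX:9949072-9949272 on the minus strand.
nas-7: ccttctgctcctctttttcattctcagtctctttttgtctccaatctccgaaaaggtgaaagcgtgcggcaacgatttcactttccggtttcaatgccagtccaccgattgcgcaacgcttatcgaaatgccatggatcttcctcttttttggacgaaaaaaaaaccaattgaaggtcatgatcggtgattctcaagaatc
nas-27: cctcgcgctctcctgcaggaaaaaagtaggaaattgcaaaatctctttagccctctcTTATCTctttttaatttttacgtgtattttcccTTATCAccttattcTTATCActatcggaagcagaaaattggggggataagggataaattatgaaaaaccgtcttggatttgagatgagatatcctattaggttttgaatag
nas-11: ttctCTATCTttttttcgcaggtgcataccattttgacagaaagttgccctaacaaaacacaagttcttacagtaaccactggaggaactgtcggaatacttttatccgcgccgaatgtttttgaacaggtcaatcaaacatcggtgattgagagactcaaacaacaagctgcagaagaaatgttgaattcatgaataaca
dpy-31: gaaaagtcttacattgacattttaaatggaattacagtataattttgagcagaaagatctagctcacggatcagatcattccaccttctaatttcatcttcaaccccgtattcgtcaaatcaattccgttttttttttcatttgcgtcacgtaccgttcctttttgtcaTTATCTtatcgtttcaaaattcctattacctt
nas-37: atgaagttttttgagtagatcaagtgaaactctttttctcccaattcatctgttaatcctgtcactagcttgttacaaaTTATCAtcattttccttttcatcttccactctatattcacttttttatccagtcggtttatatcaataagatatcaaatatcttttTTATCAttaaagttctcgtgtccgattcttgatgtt

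The *nas-27* region held 3 WGATAR matches, whose first bases lay at -43, -10 and 4 relative to the summit. The *nas-37* region held 2 matches, at -21 and 65. The *dpy-31* region had 1 match at 69, and the *nas-11* region had 1 match at -96, near the edge of the printed window. The *nas-7* region held no match, although its signal was the highest of the 5. A match is a description of the letters and not evidence of a bound site.

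The authors deposited region lists for either replicate alone, for the 2 replicates pooled, and for regions that passed the irreproducible discovery rate (IDR), a filter on how well replicates reproduce each other. The signal of a region is the value from the authors' peak caller. The pooled list holds 30000 regions of 340 bases, with signals of 10.3 to 133.1 and a median of 13.1. The IDR list holds the strongest 2.58% of them, so its weakest region has a signal of 29.5. The replicate lists also hold 30000 regions each, with median signals of 8.18 in replicate 1 and 5.91 in replicate 2, and signals are set side by side only within a list. The lists contain no read counts, so sequencing depth is unknown. At *elt-3* itself, the strongest region had a pooled signal of 92.5, ranked 7 in the pooled list, with 59.7 in replicate 1 and 34.95 in replicate 2. The strain carries the transgene besides the gene itself, and its part in that value was not tested.

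For each gene, regions were counted where the summit lay between 2000 bases upstream of a coding start and the end of the gene. A coding start here is the annotated start of a protein-coding transcript, not the start codon. A pooled region lay in this window at 27 of 38 members (71.1%, 95% exact Clopper-Pearson interval 54.1 to 84.6), beside 73.1% of all coding genes. All 6 epidermal members had a region, and so did 21 of the 32 other members (65.6%). Presence in the pooled list therefore did not set the family apart from coding genes, and the list includes background regions by design. The intervals given here cover counting error only, and genes that neighbour each other can share a region.

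The IDR list reached 1 member in the gene window, *nas-11*, which is 2.63% of the 38 (0.0666 to 13.8), beside 3.49% of all coding genes. None of the 6 epidermal members had an IDR region there. A count of 0 of 6 allows a share of up to 50% by the limit of 3 counts and up to 45.9% by the exact interval. In the narrower promoter window, 1000 bases upstream to 200 bases downstream of a start, the count was again 1 member, *nas-11*, beside 1.94% of coding genes. The family as a whole was thus near the background in the most stringent list.

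Below that list, the counts at epidermal and other members depended on where the list was ended. Among the 2000 strongest pooled regions, a threshold of 21.98 in signal that was chosen after the values were seen, a region lay at 4 of the 6 epidermal members (66.7%, 22.3 to 95.7) and at 1 of the 32 other members (3.13%, 0.0791 to 16.2). That is 5 of 38 members (13.2%, 4.41 to 28.1), beside 8.4% of all coding genes. That threshold falls between *nas-36*, ranked 1782, and *nas-9*, ranked 2239. With the 1000 strongest regions the counts were 1 epidermal member and 1 other member, beside 4.46% of all coding genes. With the 4000 strongest they were 4 epidermal members and 6 other members, beside 16.5% of all coding genes. The 4 epidermal genes among the 2000 strongest are *dpy-31*, *nas-7*, *nas-37* and *nas-36*, and with *nas-11* they are the 5 members with the strongest regions. The median strongest signal was 22.9 over the epidermal members and 11.96 over the other members, with genes that had no region set to 0. These medians lie at percentiles 92.7 and 41.4 of all coding genes, whose own median was 13.0. Over all 38 members the median was 12.5, at percentile 45.7, but its side of the middle of coding genes depended on the window and the list. It lay at percentiles 50.6 to 57.9 under 5 of 8 alternatives, both single replicates included, and at 23.2 with the upstream part of the window only. In that last setting the median itself was 0, and 23.2 is the position shared by all coding genes set to 0. The epidermal median stayed above percentile 50 under all 7 of its alternatives. Of these, adding *hch-1* and *toh-1* could not move it, since its genes stayed the same. At its lowest it was 69.7, in replicate 1 alone. The median of the other members passed 50 in replicate 1 alone, at 54.7. Gene windows were longer for epidermal members, with a median of 6356 bases, than for other members at 4685.5 and all coding genes at 4024. Regions per kilobase of window numbered 0.423 at epidermal members, 0.318 at other members and 0.312 at coding genes, and the part of window length in the signal difference was not tested.

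**Figure D1:**
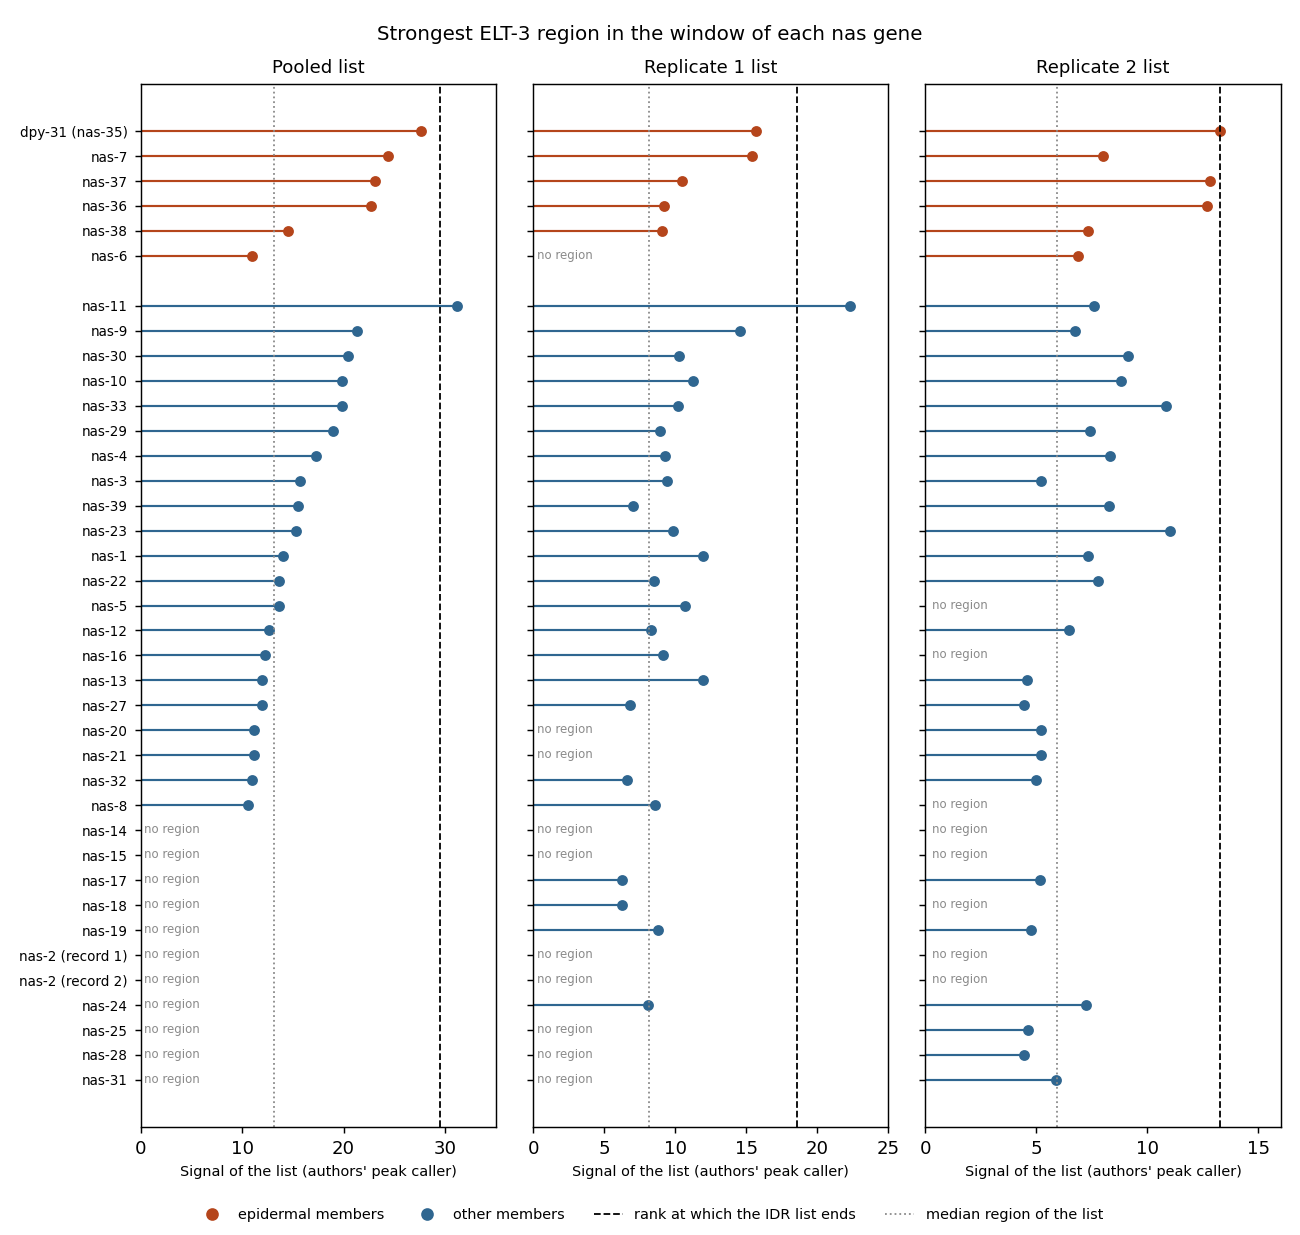
Strongest region in the window of each of the 38 members, in the pooled, replicate 1 and replicate 2 lists, on the signal scale of each list. Epidermal members stand above other members, the dashed line is the region at the rank where the IDR list ends and the dotted line the median region of the list. In the pooled list only *nas-11*, at 31.2, lies beyond the dashed line, and *dpy-31* at 27.7 is the next.

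**Figure D2:**
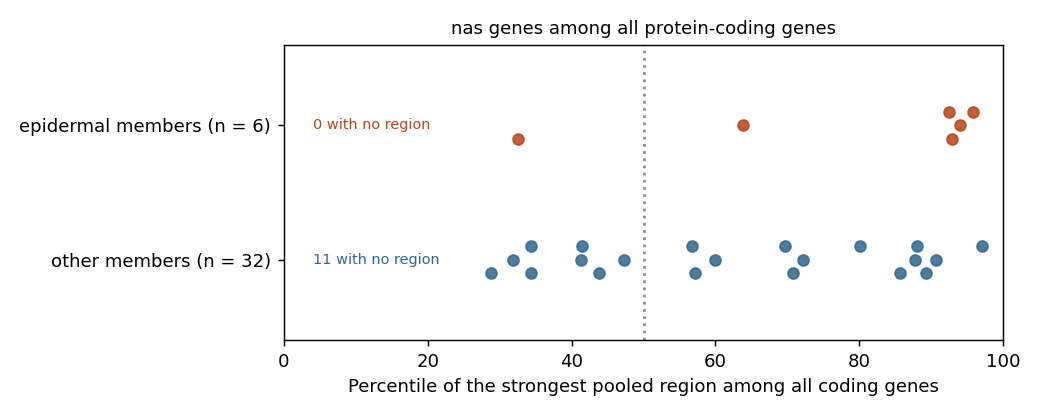
Percentile of the strongest pooled region of each member among all coding genes, with epidermal members above and other members below; points are shifted vertically only to keep them apart. Of the 6 epidermal members, 4 lie above percentile 92, while 11 of the 32 other members had no region and are given as a number.

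Of the epidermal genes, *dpy-31* had the strongest region. Its signal was 27.7 in the pooled list, with 15.7 in replicate 1 and 10.4 in replicate 2, and its rank of 938 is 164 places below the end of the IDR list. The summit lay 885 bases upstream of the first start, at chrIII:7201151-7201490, between genes. *dpy-31* had 7 pooled regions in its window, a number reached by 2.13% of coding genes, with 4 of them upstream of the first start and 3 inside the gene. Another upstream region, 663 bases from the start, had a pooled signal of 21.3, with 7.81 in replicate 1 and 11.9 in replicate 2. An intron region 1085 bases past the first start had a pooled signal of 23.9, with 10.8 in replicate 1 and 13.3 in replicate 2. That 13.3, ranked 779 in the replicate 2 list, was the highest replicate 2 signal inside the window of any member. The other 4 regions had pooled signals of 10.3 to 13.3, so in the pooled list the strong signal at *dpy-31* lay in 3 of its 7 regions. Replicate 1 did not divide them in this way. The region 1632 bases upstream, at 11.9 in the pooled list, had 11.1 in replicate 1, above the 7.81 and 10.8 given here. WGATAR was found in 4 of the 7.

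At *nas-7* the strongest region inside the window had a pooled signal of 24.4, ranked 1396, with 15.4 in replicate 1 and 7.98 in replicate 2. Its summit was 1639 bases upstream of the only annotated start, between genes, and held no WGATAR. A weaker region 83 bases upstream had a pooled signal of 10.8, and no summit of either replicate list lay inside it. A much stronger region lay just outside the window, 2743 bases upstream at chrII:7405298-7405637. Its pooled signal was 59.8, ranked 66, with 33.9 in replicate 1 (rank 90) and 25.9 in replicate 2 (rank 64), so both replicates placed it among their strongest regions. The nearest coding start was that of *nas-7* itself, and the next one, of *srd-55*, was 3024 bases away.

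*nas-37* had its strongest region close to the start, 109 bases upstream, with a pooled signal of 23.1, ranked 1700. Replicate 1 gave it 10.4 (rank 6317) and replicate 2 gave it 12.8 (rank 871), so it stood higher within the replicate 2 list. Its summit window is the one printed above with 2 WGATAR matches. A region 1493 bases upstream had a pooled signal of 13.0. An intron region 3543 bases past the start had 15.6, and in the pooled list both were well under the one at the start. In replicate 1, however, the region 1493 bases upstream had 10.45 (rank 6290), slightly above the 10.43 of the region at the start. No replicate 2 summit lay inside that upstream region. The intron region had 7.01 in replicate 1 and 9.35 in replicate 2.

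*nas-36* had its strongest region inside its own coding sequence, 3539 bases past the start at chrI:7530593-7530932. The pooled signal was 22.8, ranked 1782, with 9.23 in replicate 1 (rank 10091) and 12.7 in replicate 2 (rank 904). Its summit was nearest to the start of *C26C6.4*, 1284 bases away, and lay in the window of that gene as well. The region nearest the *nas-36* start, 282 bases upstream, had a pooled signal of 14.6, with 8.18 in replicate 1 and 6.69 in replicate 2, and held WGATAR. Of the pair, the region with WGATAR was thus the weaker.

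The remaining epidermal genes were lower. *nas-38* had a single region, 364 bases upstream of its start, with a pooled signal of 14.5 (rank 10150), 7.04 in replicate 2 and no replicate 1 summit inside it. *nas-6* had a single intron region, 2215 bases past the first start and 296 bases from a later start of the gene, with a pooled signal of 11.0 (rank 25557), 6.31 in replicate 2 and no replicate 1 region anywhere in the window. Neither region held WGATAR. At percentiles 63.9 and 32.6 of all coding genes, they show that the higher median of the epidermal members comes from 4 genes.

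**Figure D3:**
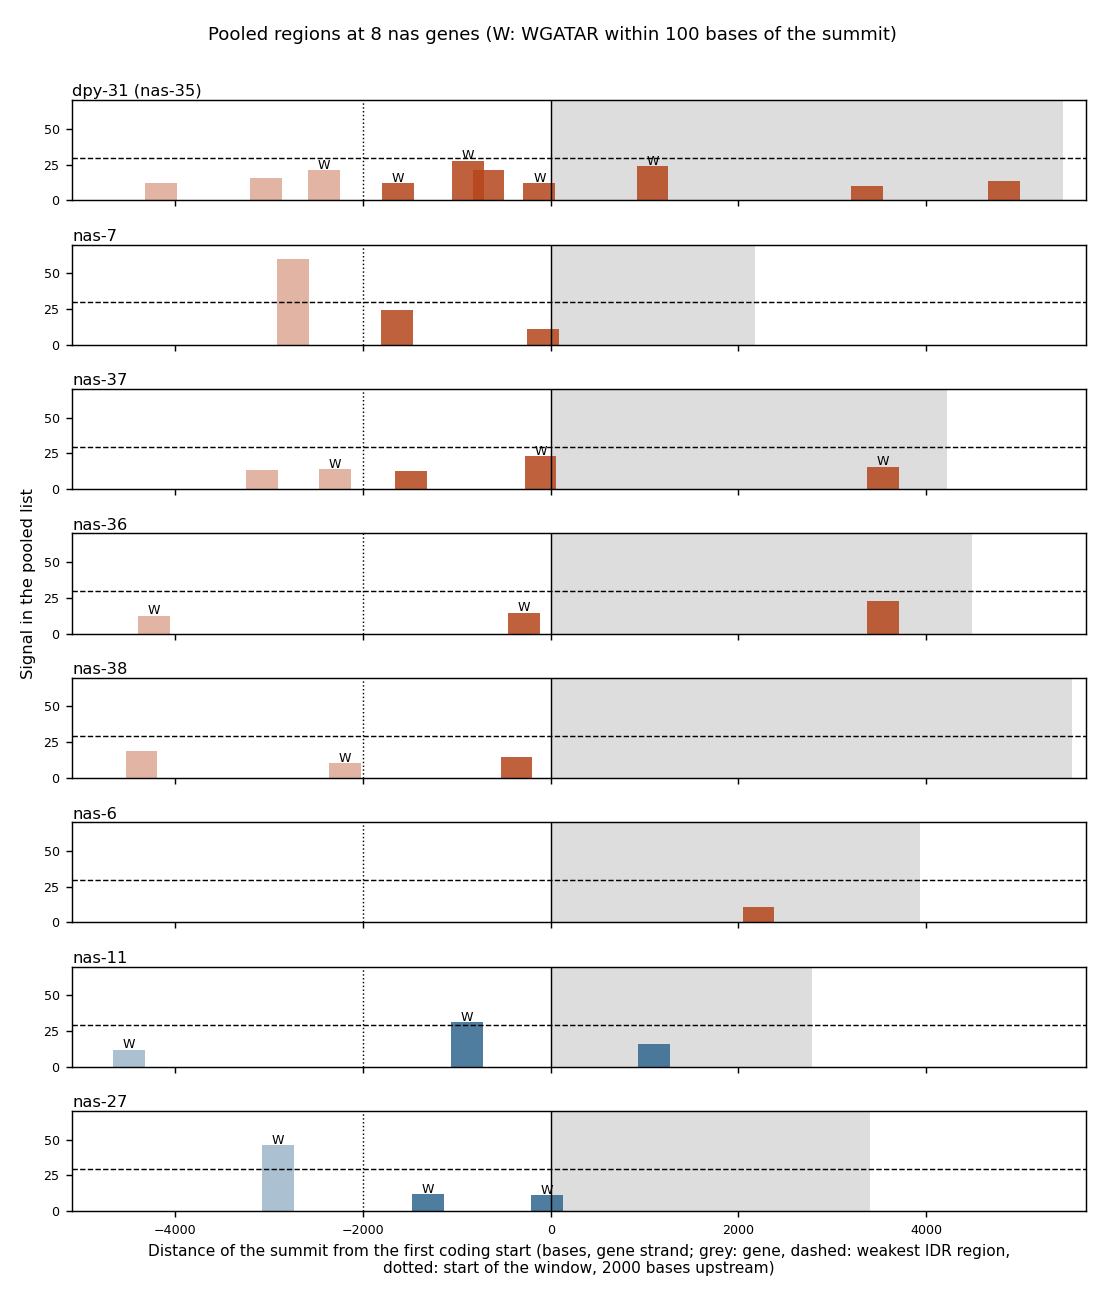
Pooled regions from 5000 bases upstream to the end of the gene at the 6 epidermal members, *nas-11* and *nas-27*, placed by distance in bases from the first coding start, with bar height as pooled signal. The paler bars lie outside the 2000-base window, where *nas-7* at 59.8 and *nas-27* at 46.0 exceed the dashed line of the weakest IDR region at 29.5. W marks regions with WGATAR within 100 bases of the summit.

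Among the other members, *nas-11* had the strongest region, with a pooled signal of 31.2, ranked 655. Replicate 1 gave 22.3 (rank 436) and replicate 2 gave 7.24 (rank 7872), so the IDR region at *nas-11* stood high in 1 replicate list and not in the other. The summit lay 892 bases upstream of *nas-11*, at chrX:6712515-6712854, in a coding exon of *acr-3*, which encodes a subunit of an acetylcholine receptor. The start of *nas-11* was nonetheless the nearest coding start. A second region 1101 bases past the start had a pooled signal of 15.6, with 13.4 in replicate 1 and no replicate 2 summit inside it.

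The next members by signal were spread over positions inside and outside their genes. *nas-9* had 21.3 in the pooled list, 14.6 in replicate 1 and 6.72 in replicate 2, in a coding exon 3668 bases past its first start. *nas-30* had 20.5, 10.3 and 9.15 in the same order of lists, in an intron. These 2 regions rank 2239 and 2562, just outside the 2000 strongest. *nas-10* had 19.9 in the pooled list, 9.82 in replicate 1 and 8.82 in replicate 2, with the summit 270 bases upstream. *nas-29* had 19.0, 8.96 and 5.94 in the same order, 128 bases upstream. Both upstream regions held 1 WGATAR match.

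Some of these regions lay at neighbouring genes. The strongest region of *nas-33* had 19.8 in the pooled list, 6.72 in replicate 1 and 10.8 in replicate 2, but its summit lay 1758 bases upstream, in the 5′ UTR of *pept-1*, the gene of an intestinal peptide transporter. That of *nas-4* had 17.3 in the pooled list, 6.79 in replicate 1 and 8.33 in replicate 2, in its 3′ UTR and in the 5′ UTR of *C05D11.5*. *nas-3* had 15.7 in the pooled list and 9.41 in replicate 1, in a coding exon, with no replicate 2 summit inside the region. At the low end, *nas-32* had 10.9 and *nas-8* had 10.5 in the pooled list, near the floor of 10.3.

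*nas-27* illustrates how much the window matters. Inside it, the strongest region had a pooled signal of 11.96, ranked 20015, with 6.27 in replicate 1 and 4.46 in replicate 2. Beyond it, 2910 bases upstream at chrII:1182063-1182402, a region of the IDR list had a pooled signal of 46.0, ranked 170, with 30.9 in replicate 1 (rank 136) and 15.5 in replicate 2 (rank 451). The next other coding start, of *dlhd-1*, was 10103 bases away. When the window was extended to 5000 bases upstream, 3 of 38 members had an IDR region (7.89%, 1.66 to 21.4), beside 5.65% of coding genes. These were 1 of 6 epidermal members, *nas-7*, and 2 of 32 other members, *nas-11* and *nas-27*.

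No pooled region lay in the window of 11 gene records, all among the other members: *nas-14*, *nas-15*, *nas-17*, *nas-18*, *nas-19*, both records of *nas-2*, *nas-24*, *nas-25*, *nas-28* and *nas-31*. For 7 of these a replicate list held a region, and for the remaining 4 records no list did. The 2 *nas-2* records are identical over all 1743 bases of the gene and over the window of 3743 bases, so reads cannot be assigned between them, and how the authors treated such reads is unknown here. Absence of a region at *nas-2* is therefore not a measurement of absent binding.

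By chromosome, 14 of the 38 members lie on chromosome V and all 14 are other members. A region was present at 7 of these 14 (50%), and at 20 of the 24 members elsewhere (83.3%). Among coding genes the shares were 68.1% on chromosome V and 74.7% elsewhere. Windows were shorter on V, with a median of 3695.5 bases for members there and 5503.5 for members elsewhere, and the part of window length was not tested. In the cluster of *nas-16*, *nas-18*, *nas-17* and *nas-19*, 1 of 4 genes had a region. In the cluster of *nas-20*, *nas-21* and *nas-22* all 3 genes had one, but *nas-20* and *nas-21* shared a single region. Over the other members off V alone, the median strongest signal was 13.9, at percentile 58.1 of coding genes, with a median window of 5277 bases. Over the epidermal members it was 22.9, with a median window of 6356 bases. The part of the chromosome in the difference between epidermal and other members was not tested.

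Within their own lists the replicates gave different weight to the members. When as many of the strongest regions were taken as the IDR list holds, those of replicate 1 reached 1 member, *nas-11*, beside 3.5% of coding genes, and none of the 6 epidermal members. Those of replicate 2 reached 0 of 38 members, which allows up to 7.89% by the limit of 3 counts and 9.25% by the exact interval, beside 3.6% of coding genes. The median of the epidermal members lay at percentile 69.7 of coding genes in replicate 1 and at 91.2 in replicate 2. The median of the other members lay at percentile 54.7 in replicate 1 and 39.4 in replicate 2. The epidermal median was above that of the other members in both lists, and the gap was wider in replicate 2. Summits of both replicates lay inside the strongest pooled region of 14 of the 27 members with a region, including 4 of the 6 epidermal members. Across those 14 regions the signals of the replicates had a Spearman rho of 0.04 and a Pearson r of 0.08 on the log2 scale. The points share the condition that the pooled list chose them, and the values describe these regions only.

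**Figure D4:**
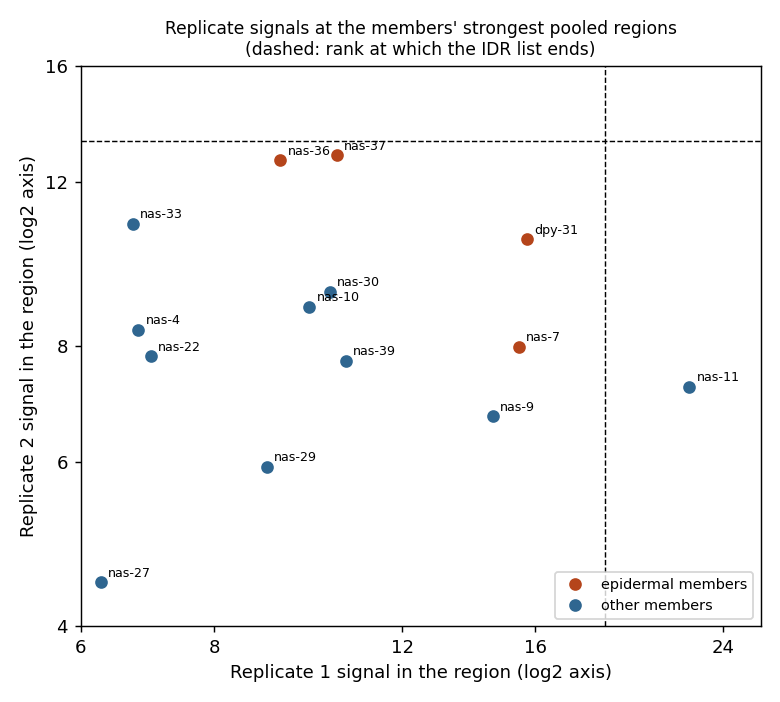
Replicate 1 signal against replicate 2 signal, both on log2 axes, at the 14 members whose strongest pooled region holds a summit of both replicate lists, with dashed lines in each list at the rank where the IDR list ends. *nas-11* is highest in replicate 1 at 22.3 and has 7.24 in replicate 2, while *nas-37* and *nas-36* are highest in replicate 2 at 12.8 and 12.7.

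The strongest regions of the 27 members are 26 distinct regions because of the one shared by *nas-20* and *nas-21*. A WGATAR match within 100 bases of the summit was present in 15 of the 26 (57.7%, 36.9 to 76.6), beside 41.2% of all pooled regions and 74.3% of IDR regions. In windows of equal length 500 bases to either side of the same summits, it was found in 20 of 52 (38.5%). Within 50 bases of the summit it was found in 4 of 26 (15.4%, 4.36 to 34.9), beside 23.6% of all pooled regions and 56.5% of IDR regions. The matches at members thus lay mostly away from the centre of the region. Among the epidermal members 2 of 6 strongest regions held WGATAR, *dpy-31* and *nas-37*, and among the other members with a region 14 of 21 did. The narrower sequence TGATAA, a subset of WGATAR, was in 9 of 26 (34.6%), beside 21.9% of all pooled regions and 58.1% of IDR regions.

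The strongest region lay upstream of the first start at 13 of 27 members (48.1%), beside 50.6% of coding genes with a region. It lay in a coding exon of the member at 8 (29.6%, beside 23.4%) and in an intron at 4 (14.8%, beside 20.4%), and in a 3′ UTR at the other two. Of the 6 epidermal members, 4 had it upstream, 1 in a coding exon and 1 in an intron. The summit was nearest to a start of the member itself at 18 of 27 (66.7%, beside 69.9% of coding genes with a region), and at 14 of 27 it also lay in the window of another coding gene (51.9%, beside 49.6%). These shares at members were near those of coding genes.

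Other genes of cuticle processing and molting were listed for comparison. Of the 39, 38 had a pooled region, beside 73.1% of all coding genes, and 6 had an IDR region (15.4%), beside 3.49%. These were *nhr-23*, a nuclear hormone receptor that drives molting, at 51.3; *cpz-1* and *cpl-1*, cathepsins, at 43.3 and 30.6; the kinase gene *nekl-2* at 39.4; *sym-1* at 38.1; and *blmp-1*, a zinc finger transcription factor of the epidermis, at 31.2. A region among the 2000 strongest lay at 18 of the 39 (46.2%), beside 8.4% of all coding genes. That threshold was chosen after the values were seen. Over the 39, the median strongest signal was 21.1, at percentile 90.2, with a median window of 7202 bases. The 22.9 of the epidermal *nas* members is close to that median. *sqt-3*, the collagen that DPY-31 processes and a gene chosen after its value was seen, had 16.01. Of 29 intestinal genes, 21 had a region, 0 had an IDR region and 2 (6.90%) had one of the 2000 strongest. The shares of all coding genes were 73.1%, 3.49% and 8.4% in the same order. The median over the intestinal genes was 13.9, at percentile 58.1 of coding genes, with a median window of 3996 bases. Windows were thus shorter than in the cuticle and molting list, and the part of window length in the difference was not tested. A count of 0 among so few genes does not show that binding is absent. The astacin genes outside the members had 21.4 at *toh-1* and 12.2 at *hch-1*, the hatching enzyme gene.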

How the data were processed

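The ChIP-seq data are region lists from 2 biological replicates. The authors deposited a signal value for each region, given by their peak caller, in lists for each replicate, for both replicates pooled and after IDR, in ce10 and ce11. Only the ce11 lists were used. The sources used here give neither the scale of the signal nor the aligner, the caller or the IDR threshold, and depth is unknown. Signal was used to rank and describe regions within a list.

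From these lists the summit of each region was placed against protein-coding genes of Ensembl release 115. The window ran from 2000 bases upstream of a coding start, the annotated start of a protein-coding transcript, to the gene end. A replicate signal was given to a pooled region where a summit of that replicate lay inside it. Genes without a region were set to 0 for medians and percentiles. WGATAR was sought on both strands within 100 bases of the summit in the RefSeq sequence of WBcel235. No test over genes was made, since there is 1 group and genes are not replicates. Shares have 95% exact Clopper-Pearson intervals. The epidermal members, every member with an IDR region, the 12 strongest and the 3 weakest members, and comparison genes with an IDR region were named. The members and lists were chosen with earlier results of these data known. Protein sequences were not analysed here. Assignment, counting and the search for WGATAR were tested on simulated data. Python 3.11.15, NumPy 2.4.6, SciPy 1.17.1 and Matplotlib 3.10.9 were used. Alternatives were other windows, lists, motifs and each replicate alone.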

Additional observations from a re-analysis of the deposited data

How the results depend on the processing

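Of 78 alternatives for 10 results, 47 left the value close to that reported and 31 moved it. A median was called close when its percentile moved by no more than the standard deviation of its single-replicate values. That was 15.2 points for epidermal members, 10.8 for other members and 2.1 for all members. For counts, a modest change was also called close, such as 19 members against 16. The 47 include alternatives that could not move a value, such as *hch-1* and *toh-1* added for the epidermal members. The median over the members lay below percentile 50 of coding genes as reported and above it under 5 of 8 alternatives, and that over the other members passed it under 1 of 8. The cause was not tested. The IDR count in the gene window was 3 members, 1 epidermal and 2 other, with a window from 5000 bases upstream, beside 5.65% of coding genes. It was 0 members and 0 other members with the 387 strongest IDR regions. With 1 replicate left out, as many of the strongest regions of the remaining replicate list as the IDR list holds were counted instead. That count was 0 to 1, for members and for other members. The 1000, 2000 and 4000 strongest pooled regions, chosen after seeing the data, were also used in place of the IDR list. They gave 2, 5 and 10 members, of which 1, 4 and 4 were epidermal. The 4000 strongest gave 6 other members. These thresholds took in 4.46%, 8.40% and 16.5% of coding genes. The promoter count was 0 with a promoter from 500 bases upstream and 0 with those 387. Counted in the same way from the remaining replicate list, it was 0 to 1 with a replicate left out. From 5000 bases upstream, as many strongest regions of replicate 1 as the IDR list holds gave 3 members and those of replicate 2 gave 2. The share of coding genes was not computed for these replicate counts, so they cannot be set against the background. Members whose strongest region held WGATAR numbered 9 with TGATAA, 10 with the upstream part of the window only and 4 within 50 bases. The median percentile of members was 51.8 with regions given to the nearest start only, 23.2 with the upstream part only, 50.6 from 1000 bases, 51.6 from 5000 bases and 54.9 to 57.9 with a replicate left out. That of other members was 23.2 with the upstream part only and 39.4 to 54.7 with a replicate left out. That of epidermal members was 69.7 to 91.2 with a replicate left out. Both values of 23.2 belong to a median signal of 0, the value set for genes without a region. The main limits are 6 epidermal genes, 1 group, unknown depth, and windows that overlap neighbouring genes.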
